A study of Mus musculus with 22 samples.

Results

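The circadian clock genes described here are Per2, Per3, Cry1, Cry2, Clock, Arntl, Nr1d1, Nr1d2, Dbp and Bhlhe40, 10 of the 24490 gene entries measured in each of 22 RNA-seq libraries. They were chosen by name, without use of their values. In 9 of the 10 the mean over all libraries reached the minimum of 1 FPKM (a read density that allows for transcript length and library size), and these 9 were tested among 12097 entries; Per3, at a mean of 0.585 FPKM, did not. Per1 was left out because Cufflinks recorded a failed estimate for it in 2 of the 22 libraries.

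All libraries came from mouse cortical neurons of the C57BL/6 strain, dissected at E16.5 (embryonic day), used at 7 days in vitro and labelled Creb1-/-, so every group lacked its own CREB by label. CREB is a transcription factor that binds cAMP response elements (CREs) and works when phosphorylated at S133, and the forms supplied here probe that site and S40, a glycosylation site. A herpes simplex virus (HSV) vector carried S40A-S133A (neither site), S133A, S40A, WT CREB or, as the control, GFP. All cultures had been silenced with 1 µM tetrodotoxin (TTX), which blocks sodium channels, and 100 µM D-AP5, which blocks NMDA receptors. All were then depolarized with 55 mM KCl for 2 h after the virus had been expressed for 4 h or 8 h. At 8 h there were 2 libraries of S40A-S133A, 2 of S133A and 4 each of S40A, WT and GFP, and at 4 h there were 2 each of S40A, WT and GFP. There was no group without virus and no group without depolarization. No label says whether replicates were separate cultures. The p-values therefore reflect the spread among these samples alone, and that spread may be technical. No label names a batch. From the library numbers in the deposited file names and the replicate numbers, 6 runs were inferred. Run A held replicate 1 and run B replicate 2 of every 4 h group. Runs C1 and C2 held replicates 1 and 2 of S40A, WT and GFP at 8 h, and runs D1 and D2 held replicates 3 and 4 of those groups and all libraries of S40A-S133A and S133A, replicate 1 in D1 and replicate 2 in D2. No run held both times, so time and run cannot be told apart.

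The mammalian clock is a feedback loop of transcription. CLOCK and BMAL1, the product of Arntl, bind E-boxes and switch on the Per and Cry genes, whose proteins then block CLOCK and BMAL1. REV-ERBα and REV-ERBβ, the products of Nr1d1 and Nr1d2, repress Arntl; DBP drives genes with D-boxes and BHLHE40 represses genes with E-boxes. Per1 and Per2 are also known as genes that light and depolarization induce through CREB, which is how the clock of the suprachiasmatic nucleus is reset.

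Promoter windows from RefSeq (build GRCm38.p6, 250 bases before to 50 after a start site) were found for 8 of the 10 genes, in 11 windows; Per2 and Bhlhe40 had no entry in the table used. Each window was searched on both strands for the full CRE TGACGTCA, its core TGACG, the E-box CACGTG and the D-box TTATGNAA. No window held the full CRE, against 1.79% of 32851 promoters. The CRE core was in the windows of Cry1 and Cry2, against 20.8% of all promoters, and the E-box was in that of Cry1 alone, against 7.15%. The windows of Cry1 (chr10:85185005-85185304, minus strand) and Cry2 (chr2:92434020-92434319, minus strand) are shown 5′ to 3′ because they hold the only letters of the CRE core among the clock genes searched. Capitals mark the E-box at position -60 and the CRE core at position -8 from the start site of Cry1, and the CRE core at position -209 of Cry2, where it lies on the opposite strand.
Cry1: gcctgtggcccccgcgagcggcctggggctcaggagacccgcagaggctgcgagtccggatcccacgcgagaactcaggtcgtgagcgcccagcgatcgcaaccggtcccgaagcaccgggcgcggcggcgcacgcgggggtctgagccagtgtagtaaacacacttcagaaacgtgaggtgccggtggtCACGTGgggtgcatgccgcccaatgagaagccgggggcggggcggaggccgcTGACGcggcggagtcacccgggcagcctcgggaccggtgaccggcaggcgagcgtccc
Cry2: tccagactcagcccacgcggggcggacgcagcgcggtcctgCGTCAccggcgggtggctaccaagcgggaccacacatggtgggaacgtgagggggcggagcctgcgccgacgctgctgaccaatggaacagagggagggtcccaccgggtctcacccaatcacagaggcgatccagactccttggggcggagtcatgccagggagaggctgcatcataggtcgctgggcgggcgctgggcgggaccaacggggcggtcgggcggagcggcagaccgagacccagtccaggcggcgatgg
The Per3 window held D-boxes at positions -205 and -158, a motif in 3.38% of all promoters. The sequence AGGTCA, the core bound by REV-ERB and ROR proteins, was in at least 1 window each of Clock, Arntl and Nr1d2 and in 16.3% of all promoters. A match describes the letters in a window and is not a binding site.

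In the deposited tables (mm10) Per2 lies at chr1:91415982-91459328, Per3 at chr4:151003655-151044665, Cry1 at chr10:85131700-85185054 and Cry2 at chr2:92403647-92434069. The activators Clock and Arntl lie at chr5:76209868-76304792 and chr7:113207465-113314126, and the repressors Nr1d1, Nr1d2 and Bhlhe40 at chr11:98767932-98775377, chr14:18204056-18239106 and chr6:108660629-108666925. Dbp lies at chr7:45705247-45710203. The levels are for whole genes. In the GENCODE annotation of mm10, Per2, Cry1 and Nr1d2 overlap no other gene, Per3 overlaps Camta1 on the same strand, and Nr1d1 and Dbp overlap Thra and Sphk2 on the opposite strand. Clock, Arntl, Cry2 and Bhlhe40 overlap Gm43658 and Ube2n-ps1, Gm45355, D930015M05Rik and 0610040F04Rik in that order. The protocol texts do not give the strand handling, so reads in such overlaps cannot be told apart.

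Creb1 checked which libraries had received CREB. Values throughout are FPKM after scaling of the libraries to each other (median of ratios). At 8 h Creb1 was between 568 and 2312 scaled FPKM in the 12 CREB libraries, against 9.59 to 14.9 in the 4 GFP libraries, and at 4 h it was 235 to 269 in the 4 CREB libraries, against 11.8 and 15.7 in the GFP libraries. Reads over the whole gene cannot check the Creb1-/- genotype. Neuron markers were high throughout (summed level of 5 genes 615 to 915 at 8 h and 639 to 846 at 4 h). The 8 astrocyte and radial glia markers summed to 72.0 to 315 at 8 h and 196 to 785 at 4 h, so the cultures were mixed. Of the 6 microglia and the 6 vascular markers, 1 in each list reached the minimum. The GFP library of run C2 was the least like the rest: over the tested genes its best correlation with another library was 0.859, where the other libraries had 0.916 to 0.943.

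Cry2, a core repressor, was the most abundant clock gene, at 42.0 ± 8.98 scaled FPKM over the 22 libraries (SD). The REV-ERBα gene Nr1d1 followed at 18.6 ± 2.74, then Arntl at 14.8 ± 4.17 and Cry1, the other cryptochrome, at 14.2 ± 2.34. Bhlhe40 averaged 8.78 ± 3.32, Clock 6.07 ± 1.42 and Per2 5.28 ± 2.06 scaled FPKM. The lowest were Nr1d2 at 3.53 ± 0.937, Dbp with a median of 3.33 and a range of 0 to 6.60, and Per3 at 0.582 ± 0.235 scaled FPKM. Cry2 was clear of its neighbour in every library, its lowest value of 30.3 lying above the highest Nr1d1 value of 24.8. Every other pair of neighbours in this order overlapped, so Nr1d1, Arntl and Cry1, or Bhlhe40, Clock and Per2, cannot be ranked firmly. Among genes with no value at 0, Bhlhe40 had the widest ratio, its highest library 3.95 times its lowest, and Nr1d1 the narrowest at 1.75 times. By SD as a share of the mean, Per3 (40.3%) and Per2 (38.9%) varied slightly more than Bhlhe40 (37.9%).

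**Figure D1:**
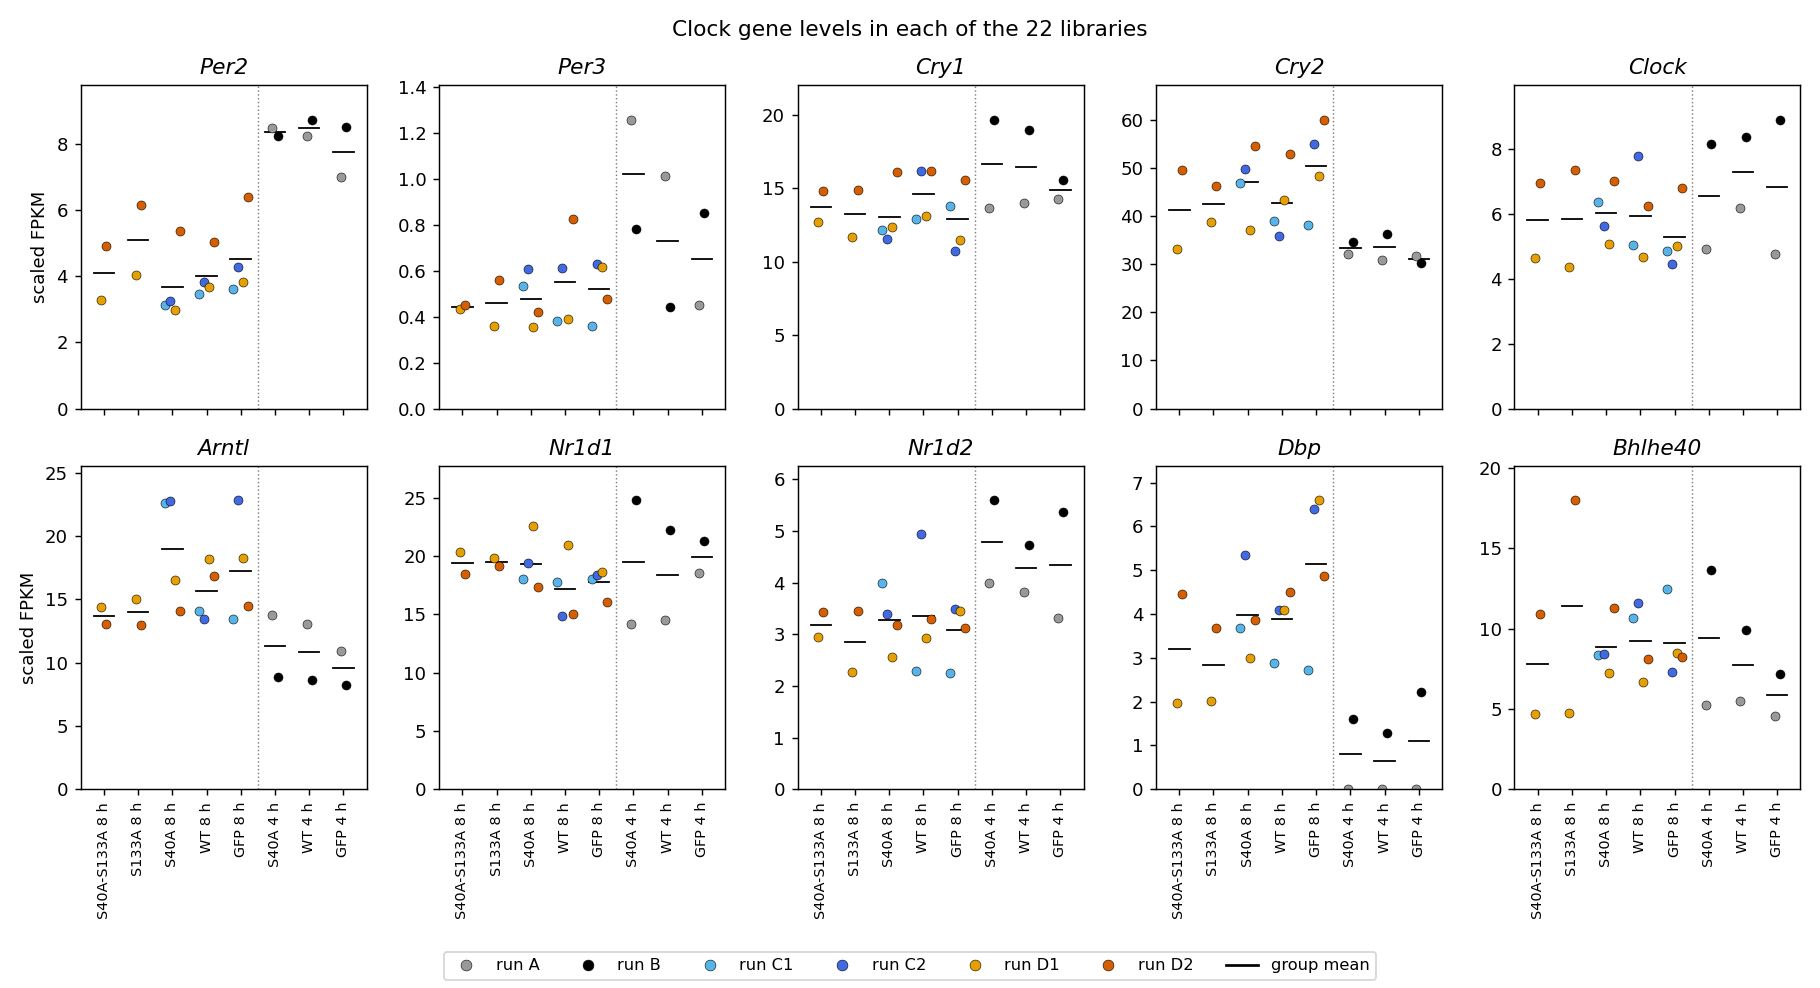
Level of each clock gene in scaled FPKM on the vertical axis (linear, from 0) in each of the 22 libraries, with the virus groups at 8 h to the left of the dotted line and those at 4 h to the right; dots are libraries coloured by run and bars are group means. Per2 at 8 h (2.97 to 6.39) lies below Per2 at 4 h (7.01 to 8.73) whatever the virus, Dbp is listed at 0 in the 3 libraries of run A, and libraries of run D2 tend to sit above those of run D1 for Per2, Cry1, Cry2 and Clock.

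The first question was whether supplying CREB, or a form of it without S133 or S40, moved the clock genes of depolarized neurons. At 8 h no clock gene passed the test with any of the 4 forms, although Creb1 itself was higher by 6.34 ± 0.45 (SE) on the log2 scale over all 4 forms. The share of all tested genes called was as small, at 0.00827% for WT against GFP, 0.00827% for S40A, 0.0248% for S133A and 0.0165% for S40A-S133A, and at 0.0248% for the mean of the 4 forms against GFP (limma, adjusted p under 0.05). The smallest adjusted p of any clock gene in these comparisons was 0.831. At an unadjusted p under 0.05 there were 0 of 9 clock genes for each form, against 1.07% to 5.89% of all tested genes.

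Per2 had 3.28 and 4.90 scaled FPKM with S40A-S133A, 4.04 and 6.15 with S133A, 3.11, 3.23, 2.97 and 5.36 with S40A and 3.46, 3.82, 3.66 and 5.03 with WT, against 3.60, 4.27, 3.83 and 6.39 with GFP. The groups overlapped. Set against the GFP library of its own run, 11 of the 12 CREB libraries were lower in Per2, by 0.17 on the log2 scale in the median library. The same 4 GFP libraries served as the base of all 12, and libraries at 8 h were not taken as pairs. The share of all tested genes with such a count was not computed. Counts of this kind, here and for the genes below, are therefore descriptions only. The fitted difference of the 4 CREB forms from GFP was -0.15 ± 0.16 (SE), with a 95% interval of -0.49 to 0.20. All log2 differences are of scaled FPKM plus a pseudocount of 1, which understates the change of low genes.

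Dbp, the D-box activator that serves as a readout of the clock, gave the largest differences. It had 1.97 and 4.46 scaled FPKM with S40A-S133A, 2.01 and 3.67 with S133A, 3.69, 5.34, 2.99 and 3.86 with S40A and 2.89, 4.09, 4.10 and 4.51 with WT, against 2.73, 6.41, 6.60 and 4.87 with GFP. The range with GFP covered nearly all of the CREB values. The fitted log2 difference of Dbp was -0.61 ± 0.35 with S40A-S133A (adjusted p = 0.975, limma) and -0.71 ± 0.35 with S133A (0.994). Over all 4 forms the difference from GFP was -0.47 ± 0.23, with an interval of -0.97 to 0.03 and an adjusted p of 0.831, and 10 of 12 CREB libraries were below the GFP library of their run. Leaving out each library in turn gave -0.66 to -0.33.

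Cry2 was also lower than GFP of the same run in 10 of 12 CREB libraries, with a fitted difference of -0.25 ± 0.15 and an adjusted p of 0.831. Its values were 33.1 and 49.6 with S40A-S133A, 38.8 and 46.3 with S133A, 46.9, 49.7, 37.1 and 54.5 with S40A and 39.0, 35.9, 43.4 and 52.9 with WT, against 38.2, 54.9, 48.2 and 60.0 with GFP. Cry1, whose window holds the CRE core nearest to a start site, differed by 0.05 ± 0.12 over all forms, with an interval of -0.20 to 0.31. The remaining 4-form differences were 0.12 ± 0.16 for Clock, -0.10 ± 0.16 for Arntl, 0.06 ± 0.09 for Nr1d1, 0.04 ± 0.16 for Nr1d2 and -0.00 ± 0.29 for Bhlhe40. No clock gene had all 12 CREB libraries on a single side of all 4 GFP libraries, against 0.116% of all tested genes. The median difference was -0.00 over the 9 clock genes and 0.01 over all tested genes.

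**Figure D2:**
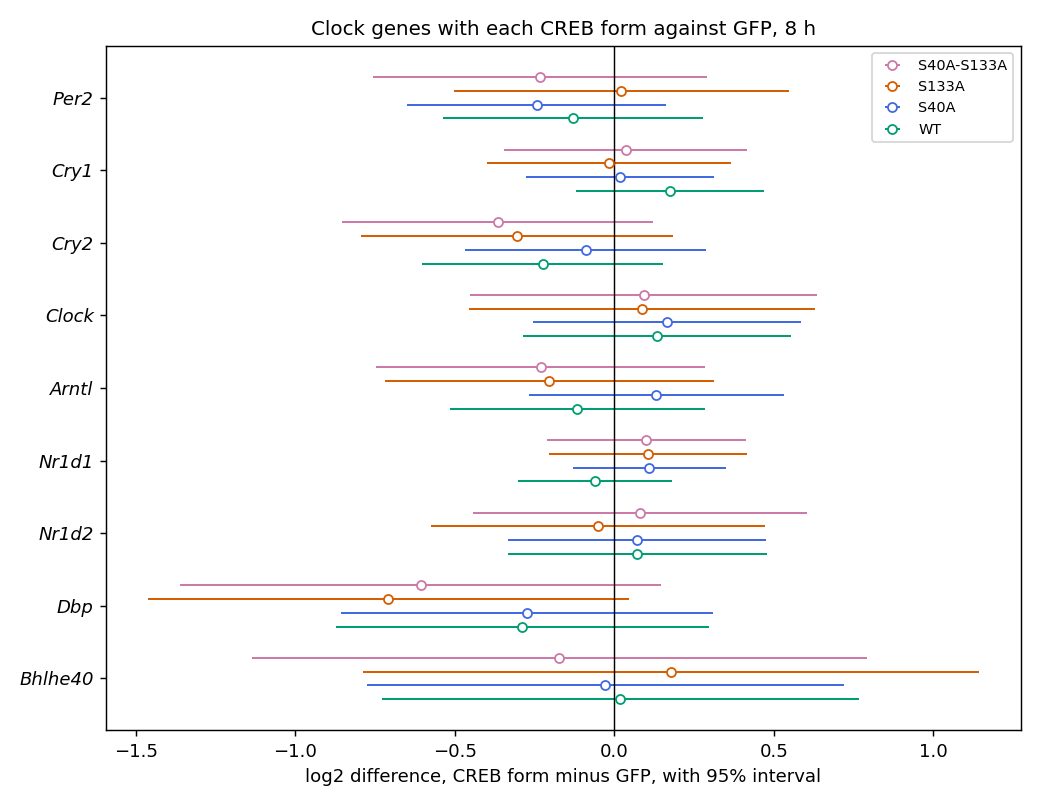
Fitted log2 difference between each CREB form and GFP at 8 h on the horizontal axis, with its 95% interval, for the 9 tested clock genes; open markers are differences that did not pass the test. All 36 markers are open and every interval includes 0, and the markers farthest from 0 belong to Dbp with S133A (-0.71) and S40A-S133A (-0.61).

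The forms of CREB were also set against each other. Against WT, no clock gene passed with S40A, S133A or S40A-S133A, where 0%, 0.0165% and 0.00827% of all tested genes did. For S40A against WT at 8 h, where limma called 0 genes, 498 (4.12%) had an unadjusted p under 0.05. Among the 9 clock genes 0 did. Loss of S133, the mean of S133A and S40A-S133A minus the mean of WT and S40A, gave a difference of -0.38 ± 0.26 for Dbp and -0.23 ± 0.17 for Arntl, and neither passed (adjusted p = 1 for both, with 0.0248% of all genes called). For no clock gene did the 4 libraries without S133 lie on a single side of the 8 with it, against 0.314% of all tested genes. The interaction of the S40 and S133 changes was between -0.30 and 0.21 for all 9 genes and called none of them, against 0.0248% of all genes. The width of the intervals limits these comparisons: for Bhlhe40 the interaction ran from -1.60 to 0.99. Bhlhe40 had 4.77 and 18.0 scaled FPKM in the S133A libraries, and 18.0 was its highest value in any library.

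At 4 h the clock genes again passed no test with S40A or WT against GFP, where 0.0909% of all tested genes passed in each comparison. Per2 had 8.47 and 8.24 scaled FPKM with S40A and 8.22 and 8.73 with WT, against 7.01 and 8.50 with GFP. Bhlhe40 had the widest difference, 0.51 ± 0.54 with S40A and 0.32 ± 0.54 with WT, and was above the GFP library of its run in 4 of 4 CREB libraries, as was Arntl. S40A against WT gave no call among the clock genes either (0.0909% of all genes called). Leaving aside Dbp, which run A lists at 0, the other 7 tested genes lay between -0.08 (Nr1d1) and 0.20 (Arntl) with S40A and between -0.14 (Nr1d1) and 0.15 (Arntl) with WT. With 3 residual degrees of freedom the intervals were wide, from -0.95 to 1.97 for Bhlhe40 with S40A. Libraries of the same number deviated together at 4 h, and with that number as a block every clock gene still had an adjusted p of 1 in these comparisons, while the count of all genes called was 8 for S40A and 10 for WT against GFP (11 each without it) and 7 for S40A against WT (11). The difference between the effects at 8 h and at 4 h was called for no clock gene, against 0.0165% of all genes for WT and 0.00827% for S40A.

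Time after infection was the second comparison. Per2 was lower at 8 h than at 4 h with every virus, and in the mean over viruses Cry2, Arntl and Dbp were higher. In the mean over GFP, WT and S40A, 5 of 9 clock genes were called, 3 higher and 2 lower, against 42.3% of all tested genes (21.5% higher and 20.8% lower). A share of 5 in 9 is near that background, so the count says little about clock genes as a group, and the median over the 9 was -0.07, against -0.02 over all tested genes. Libraries of the same run are not independent, and the fit takes them as separate. With 4 runs at 8 h and 2 at 4 h an exact permutation test over run means has 15 splits and cannot go below p = 0.067.

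Per2, which closes the feedback loop as a partner of the cryptochromes, had the most even difference. All 16 libraries at 8 h had 2.97 to 6.39 scaled FPKM (median 3.83), against 8.47 and 8.24 with S40A, 8.22 and 8.73 with WT and 7.01 and 8.50 with GFP at 4 h. The groups did not overlap, and Per2 was the only 1 of 9 clock genes of which this held, against 9.66% of all tested genes in either direction and 4.32% in this one. The run means over GFP, WT and S40A were 3.39 in C1, 3.77 in C2, 3.49 in D1 and 5.59 in D2, against 7.90 in A and 8.49 in B. Per2 fell by 0.88 ± 0.12 (log2, SE, adjusted p = 5.59e-05, limma), to 0.542 times its 4 h level on the scale of FPKM plus 1. The call held with any single library left out (-0.93 to -0.84). The difference was -0.93 without run A and -0.84 without run B. Each 4 h group then held 1 library, all of a single run, so those fits cannot measure the spread between runs. Over run means the exact two-sided permutation p was 0.067, the smallest that test can give.

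With single viruses the Per2 difference was -1.03 ± 0.21 with S40A (adjusted p = 0.00616, against 15.5% of all genes called), -0.93 ± 0.21 with WT (0.0124, against 10.4%) and -0.69 ± 0.21 with GFP (0.0461, against 11.5%), by limma. The S40A call was lost without S40A 4 h replicate 1 (adjusted p = 0.0589) and the WT call without WT 4 h replicate 1 (0.0973) or 2 (0.0604). The GFP call was lost in 14 of the 22 fits that each left out a library, its difference staying between -0.81 and -0.56, and also at a pseudocount of 0.1 (adjusted p = 0.0511), without scaling (0.0535) and without the filter (0.0700). All 3 single-virus calls were lost without run A (-1.01, -0.97 and -0.81 with S40A, WT and GFP), and those of WT and GFP also without run B (-0.90 and -0.56). Within single viruses Per2 did not overlap between times, together with Cry2, Arntl and Dbp in S40A (37.4% of all genes in either direction), Arntl and Dbp in WT (32.2%) and Cry2, Arntl, Dbp and Bhlhe40 in GFP (32.7%). Whether WT or S40A altered the change in Per2 was tested as a difference of differences, which was -0.25 ± 0.29 for WT and -0.34 ± 0.29 for S40A (adjusted p = 1 for both).

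At 8 h Dbp had 1.97 to 6.60 scaled FPKM in the 16 libraries (median 3.97). At 4 h Dbp had 1.60, 1.29 and 2.22 scaled FPKM in run B with S40A, WT and GFP, and was listed at 0 in the same groups of run A, where the authors' upper confidence bound was 0.0570 to 0.0607 FPKM. Dbp was 1 of 4 entries at 0 in every run A library and above 1 FPKM in every other library, with Eno1b, Fdx1l and Tnfrsf12a. Dbp also overlaps Sphk2 on the opposite strand, where Sphk2 had 3.57 to 4.38 scaled FPKM in run B and 5.04 to 6.23 in run A, and its part in the 0 values was not tested. Without run A, which left 1 library in each 4 h group, Dbp rose by 0.96 on the log2 scale. With run A kept, Dbp was called in the mean over viruses (adjusted p = 0.000306, limma), with a permutation p over run means of 0.067. The size of that difference, 1.67, rests on the pseudocount (3.35 at 0.1 FPKM). The single-virus calls of Dbp (adjusted p = 0.0390 with S40A, 0.0411 with WT and 0.0349 with GFP) were all lost without run A, at 0.91, 1.09 and 0.88, and also without the filter and at a pseudocount of 0.1.

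Cry2 had 33.1 to 60.0 scaled FPKM in the 16 libraries at 8 h (median 46.6), against 30.3 to 36.3 at 4 h (median 31.9). Only the lowest libraries at 8 h reached into the 4 h range. Cry2 rose by 0.49 ± 0.11 (log2, adjusted p = 0.00300, limma), by 0.44 without run A and by 0.53 without run B, with a permutation p over run means of 0.067. By virus it was 0.47 ± 0.20 with S40A, 0.33 ± 0.20 with WT and 0.66 ± 0.20 with GFP, where only GFP was called (adjusted p = 0.0409), a call lost without GFP 8 h replicate 2 (0.0975), the library that stood apart, without 7 others taken 1 at a time, without the filter (0.0561), without run A (0.135) and without run B (0.138). The S40A difference was called without S40A 8 h replicate 3 (adjusted p = 0.0347). Cry1 had 10.7 to 16.2 scaled FPKM at 8 h and 13.6 to 19.7 at 4 h. It moved the other way, with a difference of -0.23 ± 0.11 that did not pass in the reported fit (adjusted p = 0.0924, limma). The Cry1 difference was -0.40 without run A and -0.31 without S40A 4 h replicate 1. Whether Cry1 passed in these fits is not given, since both left a 4 h group with 1 library.

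Of the activators, Arntl had 13.0 to 22.8 scaled FPKM at 8 h (median 14.8), against 8.27 to 13.7 at 4 h (median 9.92). Arntl rose by 0.66 ± 0.14 (log2, adjusted p = 0.00174, limma). The call held with any single library left out (0.56 to 0.75) and was lost without run B (0.41, adjusted p = 0.0610), since Arntl was lower in run B (8.27 to 8.89) than in run A (10.9 to 13.7). No single virus gave a call, at 0.70 ± 0.24 with S40A, 0.50 ± 0.24 with WT and 0.77 ± 0.24 with GFP, but Arntl passed in GFP without any of 5 single libraries (lowest adjusted p 0.0290) and in S40A without replicate 4 at 8 h (0.0407). Clock, its partner, had 4.35 to 7.79 at 8 h and 4.77 to 8.91 at 4 h. The Clock difference was -0.21 ± 0.16 (adjusted p = 0.299, limma), with -0.51 without run A and 0.09 without run B. Whether Clock passed without a run is not given, since each 4 h group then held 1 library.

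The repressors of Arntl differed less. Nr1d2 had 2.26 to 4.94 scaled FPKM at 8 h and 3.31 to 5.59 at 4 h, and fell by 0.37 ± 0.14 (log2, adjusted p = 0.0403, limma). That call was lost without scaling (0.0746), without the filter (0.0606), without run B (-0.17, 0.445) and in 11 of 22 fits that left out a library. Nr1d1 had 14.9 to 22.6 at 8 h and 14.1 to 24.8 at 4 h and a difference of -0.07 ± 0.11 (0.671). Without run A the Nr1d1 difference was -0.32 and without run B 0.19, so its direction rested on the run used for 4 h. Nr1d1 overlaps Thra on the opposite strand, a gene at 76.3 to 160 scaled FPKM over the runs. Bhlhe40 had 4.66 to 18.0 at 8 h and 4.56 to 13.6 at 4 h (0.28 ± 0.26, adjusted p = 0.397, limma). The Bhlhe40 difference was -0.14 without run A and 0.70 without run B. Whether Nr1d1 or Bhlhe40 passed without a run is not given, since each 4 h group then held 1 library. Per3, untested, had 0.357 to 0.825 at 8 h and 0.445 to 1.26 at 4 h.

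**Figure D3:**
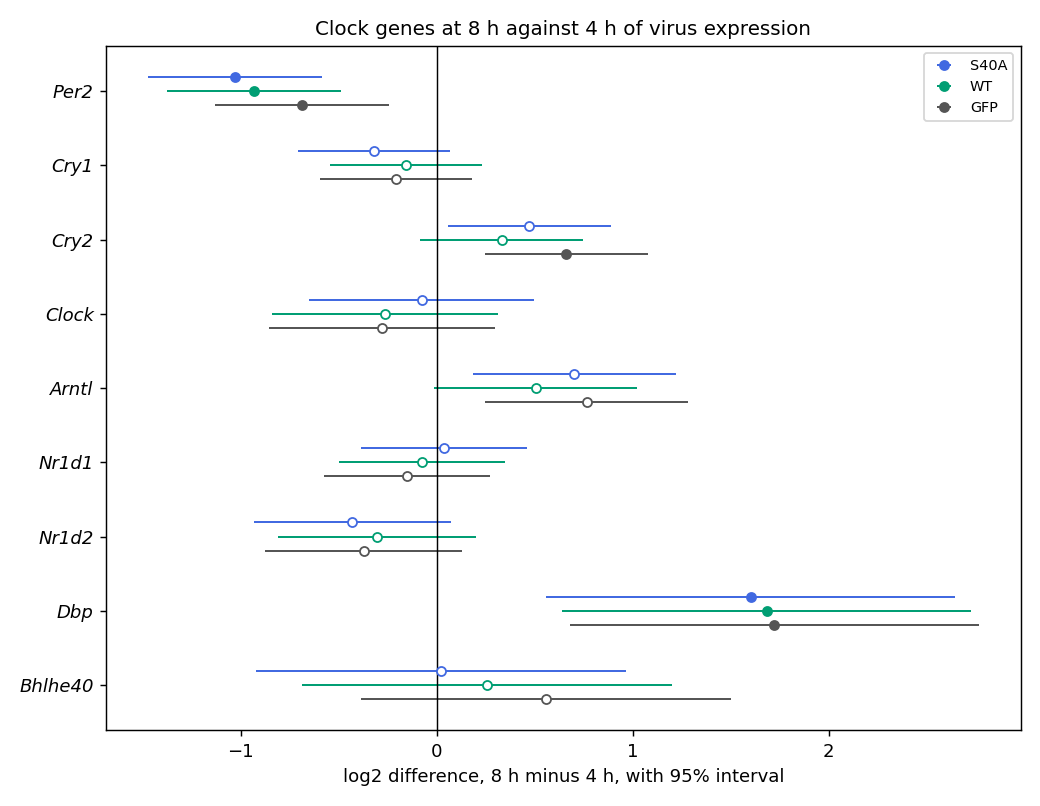
Fitted log2 difference of 8 h minus 4 h for each virus on the horizontal axis, with its 95% interval, for the 9 tested clock genes; filled markers passed the test and open markers did not. Per2 is filled below 0 with all 3 viruses (-1.03 with S40A, -0.93 with WT, -0.69 with GFP), and Cry2 is filled with GFP only (0.66). Dbp is filled above 0, with a size that depends on the 0 values in run A. Without run A the Dbp differences were 0.91 with S40A, 1.09 with WT and 0.88 with GFP.

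Of 23 further clock genes, 19 were tested and 6 were called in the mean over the 3 viruses, 2 higher and 4 lower, which is a smaller share than the 42.3% of all tested genes (21.5% higher and 20.8% lower). Wee1, a clock-controlled mitotic kinase, fell by 1.14 ± 0.20 (adjusted p = 0.000342, limma), and Nono and Sfpq, RNA-binding partners of the PER proteins, fell by 1.02 ± 0.20 and 0.46 ± 0.10. Gsk3b, a kinase of clock proteins, fell by 0.36 ± 0.11, while Hlf, a D-box activator like Dbp, and Arntl2, a paralog of Arntl, rose by 0.33 ± 0.12 and 0.37 ± 0.12. Of the 8 astrocyte and radial glia markers 7 were lower at 8 h and 5 called (median -0.87), and of the 6 tested oligodendrocyte lineage markers 5 were lower and 4 called (median -0.88), with summed levels of 24.9 to 67.2 at 8 h and 53.6 to 109 at 4 h. Fewer cells of a type and less RNA per cell cannot be told apart in bulk samples. The part of these glial levels in the clock gene differences was not tested.

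The third comparison was between these inferred runs, where they held the same viruses. In run D2 minus run D1 at 8 h, 5 of 9 clock genes were called, 4 higher and 1 lower, against 24.8% of all tested genes (10.6% higher and 14.2% lower); whether the clock genes as a group exceeded that share was not tested. Per2 had 4.90, 6.15, 5.36, 5.03 and 6.39 scaled FPKM in run D2 with S40A-S133A, S133A, S40A, WT and GFP, against 3.28, 4.04, 2.97, 3.66 and 3.83 in the same groups of run D1. Every D2 library was above every D1 library, as for 9.82% of all tested genes (23% in either direction). Per2 rose by 0.53 ± 0.06 (log2, adjusted p = 0.00105, limma), within 0.50 to 0.56 when any library was left out. The CREB forms differed from GFP in Per2 by -0.24 to 0.02.

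Clock and Cry1 also did not overlap between these runs. Clock had 6.24 to 7.35 scaled FPKM in run D2 and 4.35 to 5.06 in run D1 and rose by 0.45 ± 0.11 (adjusted p = 0.0194, limma), and Cry1 had 14.8 to 16.2 in run D2 and 11.5 to 13.1 in run D1 and rose by 0.32 ± 0.08 (0.0209). Cry2 was higher in 5 of 5 viruses, by 0.39 ± 0.11 (0.0267), and Nr1d1 was lower in 5 of 5, by a log2 difference of -0.24 ± 0.07 (0.0378). These 4 calls were less firm than that of Per2: leaving out 1 library at a time ended the call in 6 of 16 fits for Clock (highest adjusted p 0.0735), 5 for Cry1 (0.0644), 8 for Cry2 (0.0905) and 9 for Nr1d1 (0.0984). Without scaling, the Cry2 call was lost (0.26, adjusted p = 0.133). Without scaling the median of all genes shifted by -0.13, which the scaling brought to -0.02. Bhlhe40 was 10.9, 18.0, 11.3, 8.10 and 8.23 in run D2, against 4.66, 4.77, 7.27, 6.68 and 8.45 in run D1 for the same order of viruses, a difference of 0.71 ± 0.24 that did not pass (adjusted p = 0.0555). It passed without GFP replicate 3 (0.0362) or 4 (0.0480) or WT replicate 4 (0.0426). Arntl, Nr1d2 and Dbp, at -0.19, 0.17 and 0.31, did not pass.

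Run B minus run A at 4 h gave a partly different set of calls, with Clock called in both comparisons. Every tested clock gene but Nr1d1 had a fitted difference of the same sign in both. Nr1d1 was lower in run D2 and higher in run B. Arntl had 8.89, 8.64 and 8.27 scaled FPKM in run B with S40A, WT and GFP, against 13.7, 13.1 and 10.9 in run A, a fall of 0.50 ± 0.08 (log2, adjusted p = 0.0207, limma). Bhlhe40 had 13.6, 9.94 and 7.18 in run B, against 5.27, 5.50 and 4.56 in run A, and rose by 0.84 ± 0.16 (0.0301). Clock had 8.17, 8.38 and 8.91 in run B, against 4.91, 6.17 and 4.77 in run A, and rose by 0.60 ± 0.11 (0.0276), and Nr1d2 rose by 0.41 ± 0.10 (0.0448). With Dbp, which was listed at 0 in run A, this made 5 of 9 called, against 40.8% of all tested genes, 19.9% higher and 20.9% lower, so the count is near the background. Between these runs 7 of 9 clock genes did not overlap, against 63.9% of all tested genes. Run A also stood apart in its deposited estimates, as given under processing. The part of that in the differences between runs and times was not tested. Without scaling, where the median of all genes shifted by -0.25, Clock (0.35, adjusted p = 0.0760) and Nr1d2 (0.18, 0.230) were not called, and without the filter Clock (0.0526), Nr1d2 (0.0828) and Bhlhe40 (0.0639) were not. With 2 residual degrees of freedom, leaving out any of the 6 libraries ended the calls of Clock (0.0561 to 0.146) and Nr1d2 (0.0835 to 0.192). Leaving out any WT or S40A library ended those of Arntl (highest adjusted p 0.133) and Bhlhe40 (0.119). Nr1d1 (0.51, 0.0544) and Cry1 (0.34, 0.0680) passed only without a GFP library. Per2, which separated D2 from D1, differed by 0.10 ± 0.09 between B and A and did not pass.

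**Figure D4:**
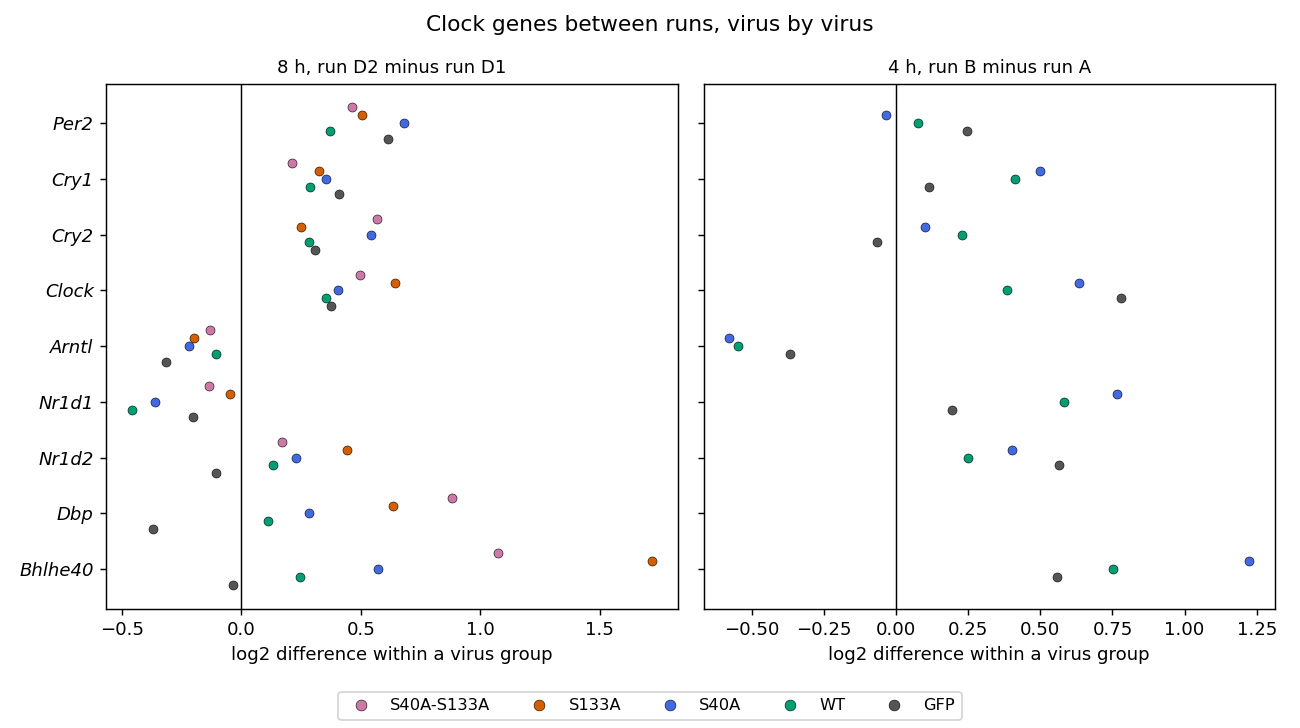
Log2 difference between runs within each virus group on the horizontal axis, for run D2 minus run D1 at 8 h (left) and run B minus run A at 4 h (right); each dot is a virus group. Per2, Cry1, Cry2 and Clock lie above 0 in 5 of 5 groups at the left, and Nr1d1 and Arntl lie below 0 there. At the right Arntl is below 0 and Cry1, Clock, Bhlhe40, Nr1d1 and Nr1d2 are above 0 in 3 of 3 groups. Dbp is left out at the right because run A lists it at 0.

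Genes that depolarization induces also differed between these runs. Of 12 such genes, among them Fos, Npas4 and Nr4a1, 12 were higher in run D2 than in run D1. Of these 10 were called, against 24.8% of all tested genes, with summed levels of 1809 to 2989 in run D2 and 876 to 1959 in run D1. In run B all 12 were higher than in run A and called, against 40.8% of all tested genes. Their sums were 3420 to 3889 in run B and 641 to 1289 in run A. In C2 against C1 10 of the 12 were lower, and in the later against the earlier 8 h libraries 11 were lower, with 0 called in each. Fos had 459 to 707 scaled FPKM in run D2 and 225 to 518 in run D1, a difference that did not pass (adjusted p = 0.0777, limma), and 815 to 917 in run B and 181 to 339 in run A (0.0119). The fitted difference of Creb1 in D2 against D1 was 1.29 ± 0.30 (adjusted p = 0.0149, limma), and it came from the libraries given CREB. They had 1837 to 2312 scaled FPKM in run D2 and 568 to 757 in run D1. With GFP, Creb1 was lower in run D2 (11.2) than in run D1 (14.9). Nfil3, a repressor that competes with DBP at D-boxes, rose by 1.37 ± 0.31 in D2 against D1 and by 1.60 ± 0.11 in B against A (adjusted p = 0.0133 and 0.00600, limma). Of the 19 further clock genes tested, 4 were called in D2 against D1, all higher (Nfil3, Rora, Ccrn4l and Csnk1d). Of all tested genes 24.8% were called, 10.6% higher and 14.2% lower. In B against A 10 were called, against 40.8%, with Nfil3, Rora, Ccrn4l, Gsk3b, Fbxw11 and Rorb higher and Npas2, Nono, Timeless and Ciart lower. Both total counts are near their background. Whether the share called higher in D2 against D1 exceeded its own background was not tested. The part of the depolarization response in the clock gene differences between runs was not tested.

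No clock gene was called between runs C2 and C1, nor between the later and the earlier 8 h libraries. For C2 against C1 limma called 0% of all tested genes, with 1156 at an unadjusted p under 0.05, among them Dbp (0.60 ± 0.24, adjusted p = 0.515). Dbp had 5.34, 4.09 and 6.41 scaled FPKM in run C2 with S40A, WT and GFP, against 3.69, 2.89 and 2.73 in run C1. The runs did not overlap in Dbp, the only clock gene of which this held, against 4.13% of all tested genes in this direction and 10% in either. For the later minus the earlier libraries, which called 0.0579% of all genes, the largest clock gene difference was 0.25 ± 0.15 for Per2, and the other 8 lay between -0.20 (Bhlhe40) and 0.16 (Cry2). Between C2 and C1 the 8 genes other than Dbp lay between -0.19 (Bhlhe40) and 0.38 (Nr1d2).

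Among the 16 libraries at 8 h, Cry1 and Clock ran most closely together (Pearson's r = 0.78 of log2 values, n = 16), followed by Cry2 and Dbp (0.75). Cry1 ran against Arntl (-0.68) and Nr1d1 (-0.64). These are descriptions, since the libraries share runs and viruses. Over all 22 libraries the genes whose pattern was most like that of Per2 were Ptpn12 (r = 0.93) and Ptch1 (0.92). The closest to Dbp were Pde2a and Tesc (0.96 each), to Arntl Zfp641 (0.95), to Cry2 Higd1a (0.94), to Clock Hipk1 (0.93), to Nr1d2 Sox6 (0.93), to Nr1d1 Rnft2 (0.92), to Cry1 B230216N24Rik (0.91) and to Bhlhe40 Plk2 (0.86).

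**Figure D5:**
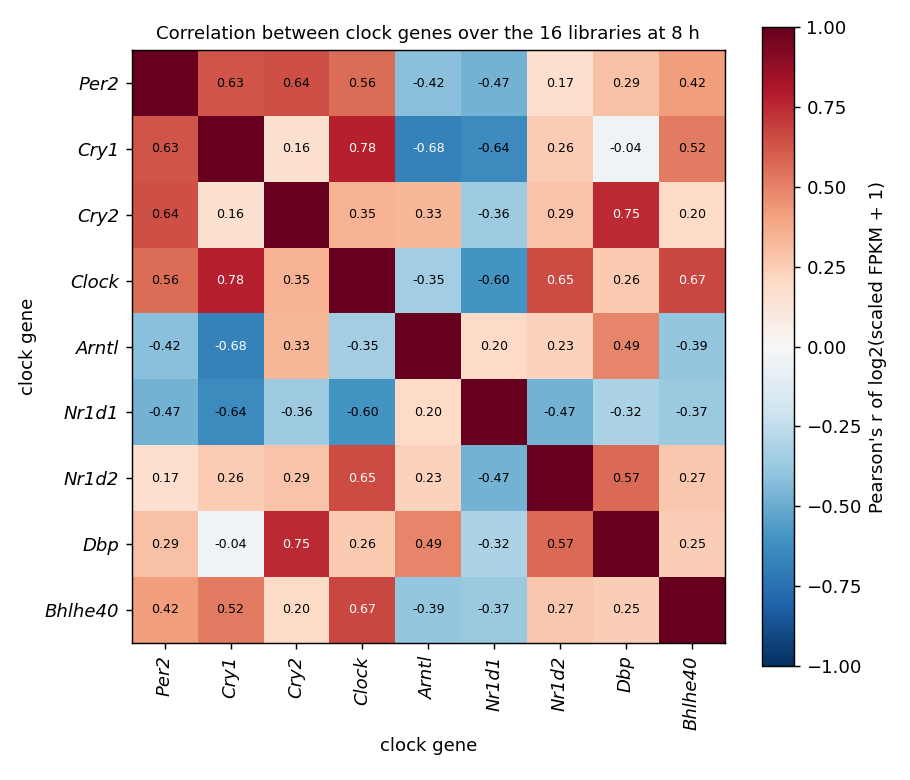
Pearson's r between the log2 levels of each pair of the 9 tested clock genes over the 16 libraries at 8 h, by colour and number. Cry1 with Clock (0.78) and Cry2 with Dbp (0.75) are the highest pairs, and Cry1 with Arntl (-0.68) and with Nr1d1 (-0.64) the lowest.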

How the data were processed

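Each deposited table gives FPKM for 24490 entries of a single library, with confidence bounds and a status from Cufflinks. Run A stood apart in these estimates. Its libraries summed to 422524 to 444454 FPKM, against 310448 to 394978 in the other runs. No library of any run held more than 347 entries of low-data status. In run A the Creb1 FPKM of WT (257.7) and S40A (255.2) lay below its own lower bound (258.6 and 256.0). Whether run A was processed differently was not tested. CASAVA 1.7 and Bowtie 0.12.2 are named per the submitters' processing notes, Cufflinks without a version and the builds mm8 and mm10 without a role; strand and multiple mapping are not given in the sources used here. The tables hold no read counts, and depth was not estimated.

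FPKM values were joined by entry, scaled by median-of-ratios factors (0.860 to 1.11) and taken as log2 with a pseudocount of 1. Entries with a mean of at least 1 FPKM numbered 12118; removing 21 of these with a failed estimate left 12097. limma 3.58.1 (R 4.3.3) was fitted with a mean-variance trend and two-sided moderated tests, adjusted by Benjamini-Hochberg over all tested entries; a call is an adjusted p under 0.05. The 16 libraries at 8 h had a term for the earlier (C) or later (D) libraries, the 6 at 4 h no such term, and a joint fit of all 22 gave the time differences. Runs entered their own fits. Python 3.11.15 served for descriptions (pandas 2.3.3, numpy 2.4.6) and figures (matplotlib 3.10.9). The fits were tested on simulated data.

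The rule was to report all 10 clock genes in every comparison; they are given by name, or by range and count where differences were small, and Per3 was in no fit. They stand with 23 further clock genes, 12 depolarization-induced genes and cell type markers as lists. The genes and lists were chosen with earlier results of these data known. The mean of the 3 viruses over time and the fits without run A or run B were added after seeing the data. Alternatives were a pseudocount of 0.1, no scaling, no filter, no term for the library set, a replicate block and leaving out each library. With each group's mean taken out, the deviations of libraries of the same run correlated at -0.04 to 0.40 at 8 h. Of 26 pairs 16 were over 0.1, so run was not taken to pair the libraries there. At 4 h the deviations correlated at 0.55 to 0.56 in 3 of 3 pairs. Run was taken to pair the libraries at 4 h, from the data and not from a label. The fit without the block stayed the reported one.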

Additional observations from a re-analysis of the deposited data

Results flagged for a closer look

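Per2 in replicate 4 of S40A at 8 h stood at 5.36 scaled FPKM, far from the other 3 libraries of its group at 2.97 to 3.23. The gap to its nearest neighbour was 0.89 of the group's range, above Dixon's 95% critical value of 0.829 for 4 samples. This library was in run D2, in which Per2 was higher than in run D1 with every virus. It was the only case among 30 groups of 4 libraries examined (10 clock genes in 3 groups), and chance gives about 1 in 20. Without it the mean Per2 difference of 8 h against 4 h was -0.93.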

How the results depend on the processing

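Over 23 comparisons and 9 clock genes, 4266 alternative values were compared with the reported ones. Of these, 4108 kept their side of the threshold, 135 lost a call, 23 gained one and 0 calls changed sign; 273 of the values that kept their side were uncalled differences whose sign changed. No clock gene was called for any CREB form under any setting.

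The count of called genes moved as follows, and the cause was not tested. Without scaling the later minus earlier count was 4 (7 reported). Without the filter it was 102, and counts were 2 (1) for S40A-S133A against WT, 5 (3) for loss of S133, 5 (3) for the interaction, 3 (0) for C2 against C1, 4 (11) for S40A against WT at 4 h and 3 (1) for the S40A difference between times. With the replicate block of run, S40A against WT at 4 h gave 7, and 8 h against 4 h gave 4549 (1870) with S40A, 3730 (1253) with WT and 3728 (1397) with GFP; no run held both times, so this block pairs no 8 h library with a 4 h one and only takes the spread between runs out of the error. In it Arntl and Cry2 also passed with S40A (adjusted p = 0.0161 and 0.0195), Arntl with GFP (0.0125), and Cry1 with S40A (0.0431) and in the mean of viruses (0.00943), where the exact permutation p over run means was 0.267 and the runs overlapped. For the likeness of libraries, group means were taken out and libraries of the same group left aside. On that basis 12 of 16 libraries at 8 h correlated best with a library of their own run. All 6 at 4 h did too, but with 2 libraries a group this only restates that the paired deviations correlated above 0. Without run A the time counts were 917 with S40A, 628 with WT and 894 with GFP, and the differences between times 21 for S40A and 23 for WT; without run B they were 3180 with S40A and 2396 with WT, and 24 and 21.

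Leaving out 1 library at a time, the count ranges were 482 to 5339 for B against A, 1588 to 3472 for D2 against D1, 0 to 230 for C2 against C1 and 1 to 8 for later minus earlier. They were 452 to 1974 for S40A over time, 127 to 1412 for WT, 293 to 1531 for GFP and 4437 to 5315 for the mean of viruses, with 1 to 11 and 2 to 7 for the differences between times of S40A and WT. At 4 h they were 15 to 34 for S40A against GFP, 12 to 29 for WT against GFP and 0 to 31 for S40A against WT. At 8 h they were 2 to 10 for S40A-S133A, 3 to 9 for S133A, 1 to 1 for S40A and 1 to 1 for WT against GFP, 3 to 11 for any CREB form, 1 to 9 for S40A-S133A, 2 to 8 for S133A and 0 to 0 for S40A against WT, and 3 to 11 for loss of S133 and for the interaction. Where a group was left with 1 library, as in every 4 h group without run A or run B, that library was assumed to vary like the other groups. The few libraries per group, and the shared runs, limit every comparison of viruses here.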
